A study of Homo sapiens with 6 samples.

Results

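The carbohydrate 6-O sulfotransferase genes CHST1 to CHST7 were examined in the RKO colon carcinoma line, an established human cell line. Members were chosen by name, and a probe set was kept where the RefSeq accession in its identifier matched one of these symbols. All 7 genes were measured, by 8 of the 1259 probe sets in the table, since CHST5 had 2; the table held 927 named genes. RKO C2 F3 (F3 below) was obtained from RKO C2 (C2 below) by fluorescence-activated sorting for low u-PAR, the urokinase plasminogen activator receptor. C2 is a clonal population of RKO, and F3 is called clonal in some labels and only a population in others. Each was represented by 3 arrays of untreated cells as far as the labels say, numbered 1 to 3 in both, and no other agent or allele is named. The comparison asked which glycosylation enzyme is deficient in cells where u-PAR matures incompletely.

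These enzymes work in the Golgi apparatus and move a sulfate group from the donor PAPS (3'-phosphoadenosine 5'-phosphosulfate) onto carbon 6 of a sugar in a growing glycan. CHST1 sulfates galactose, above all in keratan sulfate, a sulfated chain of repeated galactose and N-acetylglucosamine (GlcNAc). CHST2, CHST4, CHST5 and CHST6 act on GlcNAc, in ligands of the leukocyte adhesion receptor L-selectin, in mucins and in keratan sulfate. CHST3 acts mainly on N-acetylgalactosamine (GalNAc) in chondroitin sulfate, so the name galactose and GlcNAc sulfotransferases does not describe it fully, and CHST7 accepts both GlcNAc and chondroitin GalNAc. CHST5 is known from the intestine and CHST4 from the high endothelial venules of lymph nodes.

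No difference between F3 and C2 was detected for any of the 8 probe sets. Limma, a linear model with variances moderated across all probe sets, gave Benjamini-Hochberg adjusted p-values from 0.97 to 0.998, adjusted over the 1259 probe sets. RNA came from whole populations, so fewer cells that express a gene and less RNA per cell cannot be told apart. At the adjusted threshold of 0.05, 0 of 8 passed, against 0.0794% of all probe sets. At an unadjusted p under 0.05 the count was also 0 of 8, against 5.4% of all, and with the replicate number as a block it was 0 of 8 against 8.02%. For 0 of 8 did the 3 F3 arrays lie entirely above or below the 3 C2 arrays, against 10.3% of all probe sets. The changes (F3 minus C2, in log2 units) were negative for 4 probe sets, against 54.6% of all, and positive for 4. Their median was -0.0036 and their median size 0.056, against -0.0064 and 0.047 over all probe sets. Every 95% interval of the 8 lay between -0.31 and 0.24, so the intervals of all 8 excluded a 1.5-fold change in either direction. This holds for the array values, whose processing compresses changes of dim probe sets, and the spread behind the intervals may be technical only. CHST2, at percentile 19.6 of mean signal, was the dimmest of the 8.

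**Figure D1:**
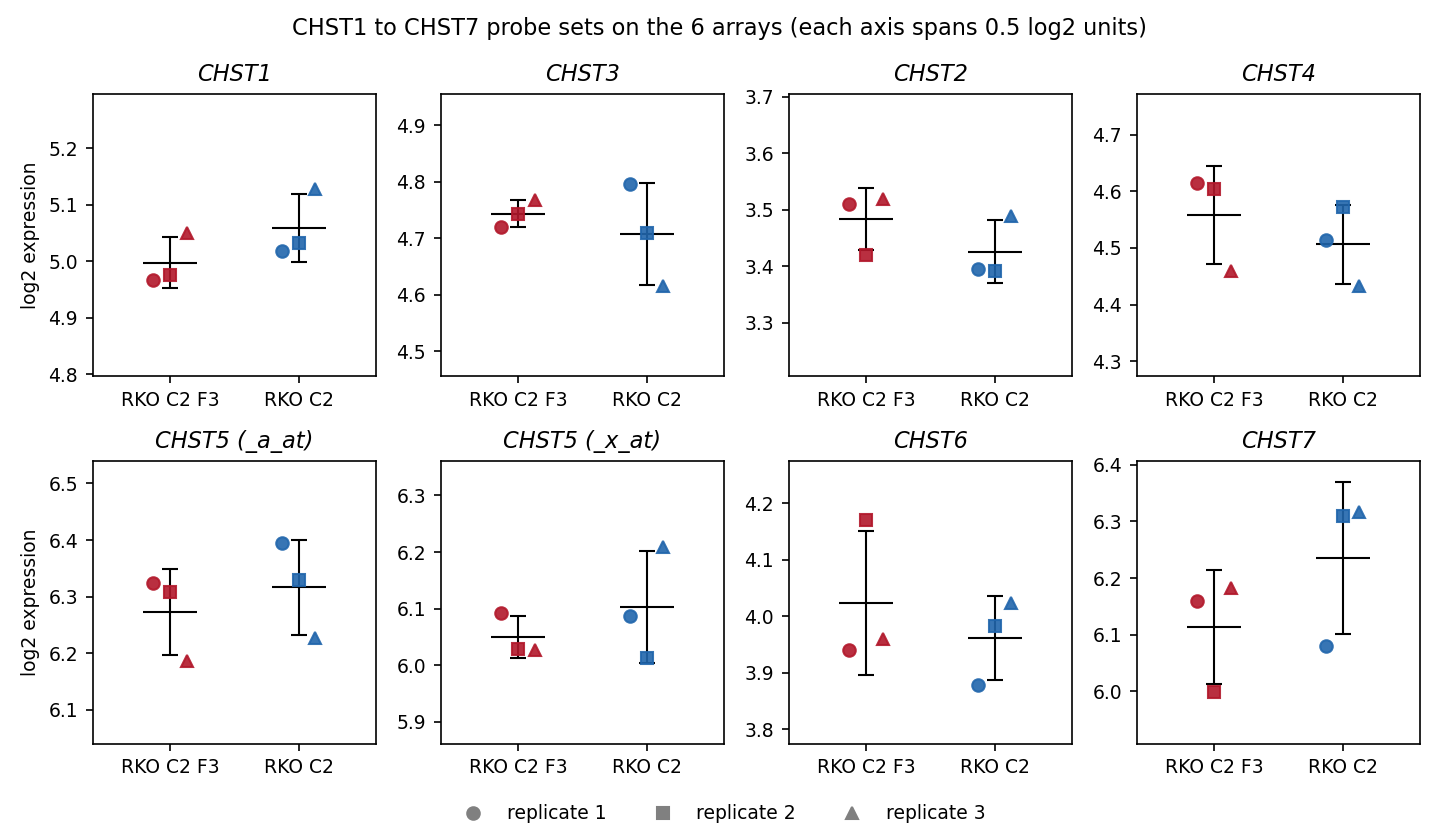
Log2 expression of the 8 probe sets on the 3 RKO C2 F3 arrays (red) and the 3 RKO C2 arrays (blue); symbols mark the replicate number, and the bar and whiskers are mean and SD. Every panel spans 0.5 log2 units, and in every panel the values of both populations overlap.

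CHST1, the keratan sulfate galactose sulfotransferase, had log2 expression of 4.97, 4.98 and 5.05 on the F3 arrays, against 5.02, 5.03 and 5.13 on the C2 arrays. F3 replicate 3 lay above C2 replicates 1 and 2, so the populations overlapped. The means were 4.998 ± 0.046 in F3 and 5.059 ± 0.059 in C2 (SD, n = 3 each), a log2 change of -0.061 (SE 0.056, 95% interval -0.19 to 0.066, limma adjusted p = 0.97). On the linear scale this interval runs from 12.3% lower to 4.70% higher in F3. CHST3, the chondroitin 6-O sulfotransferase, stood at 4.719, 4.744 and 4.767 on the F3 arrays, against 4.796, 4.709 and 4.616 on the C2 arrays. The 3 F3 values lay inside the C2 range. The SD of CHST3 was 0.024 in F3 and 0.090 in C2, with a log2 change of 0.036 (95% interval -0.10 to 0.17, limma adjusted p = 0.998). Without C2 replicate 3, the lowest array, the change of CHST3 was -0.0091.

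CHST2 and CHST4 make the sulfated GlcNAc of L-selectin ligands, CHST2 in many tissues and CHST4 mainly in high endothelial venules. CHST2 had log2 expression of 3.51, 3.42 and 3.52 on the F3 arrays, against 3.40, 3.39 and 3.49 on the C2 arrays. The highest value was F3 replicate 3 and the lowest C2 replicate 2, but C2 replicate 3 exceeded F3 replicate 2. The means were 3.48 ± 0.06 in F3 and 3.43 ± 0.06 in C2 (SD, n = 3 each), a log2 change of 0.058 (95% interval -0.071 to 0.19, limma adjusted p = 0.97). CHST4 was at 4.615, 4.603 and 4.459 on the F3 arrays, against 4.515, 4.572 and 4.432 on the C2 arrays. In both populations replicate 3 was the lowest array for CHST4. Its log2 change was 0.053 (SE 0.065, 95% interval -0.096 to 0.20, limma adjusted p = 0.998).

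CHST5, the intestinal GlcNAc sulfotransferase, was read by 2 probe sets whose identifiers end in _a_at and _x_at. In Affymetrix naming the first ending marks probes for several transcripts of a gene, and the second marks probes that may also bind other transcripts; no source used here defines them for this array. CHST5 _a_at had log2 expression of 6.32, 6.31 and 6.19 on the F3 arrays, against 6.39, 6.33 and 6.23 on the C2 arrays. The order of the 3 numbers was the same in both populations, with replicate 1 highest and replicate 3 lowest. The log2 change of CHST5 _a_at was -0.044 (SE 0.065, 95% interval -0.19 to 0.11, limma adjusted p = 0.998), and without F3 replicate 3 it was 0.00011. CHST5 _x_at stood at 6.09, 6.03 and 6.03 on the F3 arrays, against 6.09, 6.01 and 6.21 on the C2 arrays, with C2 replicate 3 alone above the others. Its log2 change was -0.054 (95% interval -0.20 to 0.091, limma adjusted p = 0.998). The distance between the probe sets was smallest on C2 replicate 3. There _a_at exceeded _x_at by 0.017, against 0.31 and 0.32 on the other C2 arrays and 0.23, 0.28 and 0.16 on the F3 arrays.

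CHST6, the corneal enzyme that sulfates GlcNAc in keratan sulfate, is a close relative of CHST5, and the genes lie near each other on the same chromosome. Whether the probes of one also bind transcripts of the other was not tested. The identifier of the CHST6 probe set ends in _a_at and that of CHST4 in _s_at. No source used here defines these endings for this array, and binding to other transcripts was not tested for either. CHST6 had log2 expression of 3.94, 4.17 and 3.96 on the F3 arrays, against 3.88, 3.98 and 4.02 on the C2 arrays. F3 replicate 2 was the highest array, and the other 2 F3 arrays lay within the C2 range. The means were 4.02 ± 0.13 in F3 and 3.96 ± 0.07 in C2 (SD, n = 3 each), a log2 change of 0.062 (95% interval -0.11 to 0.24, limma adjusted p = 0.998). Without F3 replicate 2 the change of CHST6 was -0.011.

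CHST7, which sulfates both GlcNAc and chondroitin GalNAc, had the largest change of the 8 probe sets. Its log2 expression was 6.159, 5.998 and 6.183 on the F3 arrays, against 6.081, 6.309 and 6.316 on the C2 arrays. C2 replicates 2 and 3 were above all F3 arrays, while C2 replicate 1 was below 2 of the 3. The means were 6.11 ± 0.10 in F3 and 6.24 ± 0.13 in C2 (SD, n = 3 each), and F3 minus C2 was -0.12 (SE 0.08, 95% interval -0.31 to 0.066, limma adjusted p = 0.97). The interval for CHST7 reached from 19.3% lower to 4.65% higher in F3, the widest of the 8. In size the change of CHST7 stood at percentile 87.2 of all probe sets, while those of the other 7 lay between percentiles 40.3 and 61.5.

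**Figure D2:**
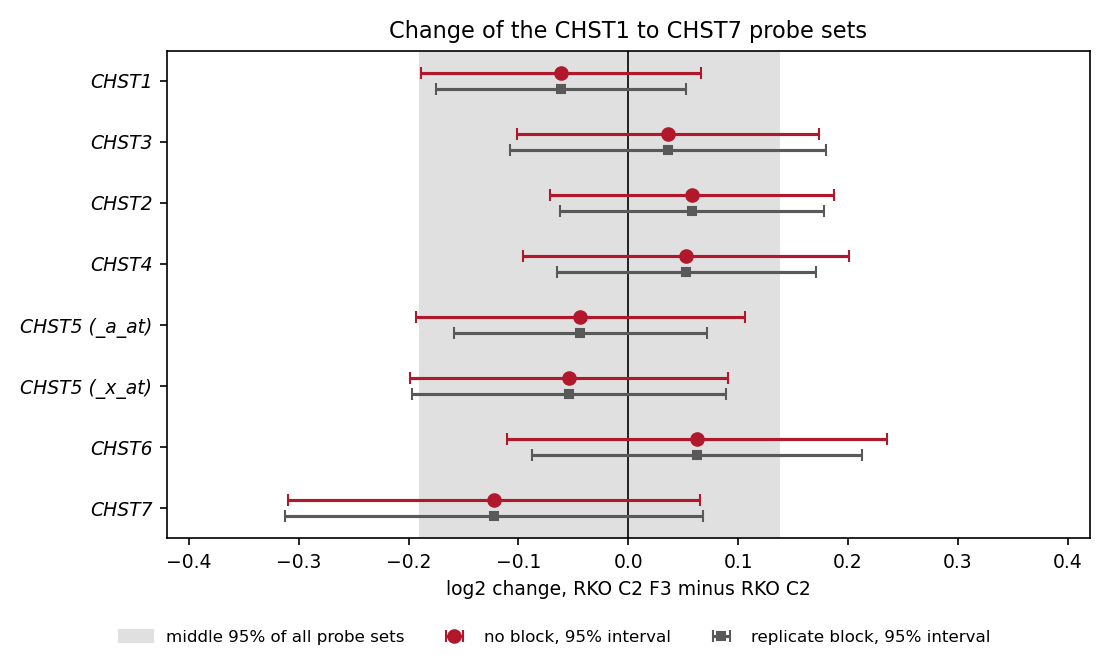
Log2 change (RKO C2 F3 minus RKO C2) of each probe set with its 95% interval, without a block (red) and with the replicate number as a block (grey squares); the shaded band holds the middle 95% of the changes of all 1259 probe sets, from -0.19 to 0.14. All 16 intervals cross 0, and all 8 changes lie inside the band.

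Arrays of the same number were taken as pairs. CHST1 and CHST5 _a_at were lower in F3 in all 3 pairs, as were 17.8% of all probe sets. The differences of CHST1 were -0.051, -0.055 and -0.077 for numbers 1, 2 and 3, and those of CHST5 _a_at were -0.070, -0.020 and -0.041. CHST2 and CHST4 were higher in F3 in all 3 pairs, as were 12.1% of all probe sets. Their differences were 0.12, 0.029 and 0.030 for CHST2. For CHST4 they were 0.10, 0.031 and 0.027. The other 4 probe sets had pairs of both signs. CHST3 differed by -0.077, 0.035 and 0.15, CHST5 _x_at by 0.0055, 0.016 and -0.18, and CHST6 by 0.062, 0.19 and -0.063. CHST7 differed by 0.079, -0.31 and -0.13, with number 2 farthest from 0. Blocking on the number lowered the SE of CHST5 _a_at to 0.048 with the block, against 0.065 without it. The SE of CHST3 stayed at 0.060, and that of CHST7 was 0.079 with the block against 0.082 without it. The smallest adjusted p with the block was that of CHST7 at 0.74 (limma).

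**Figure D3:**
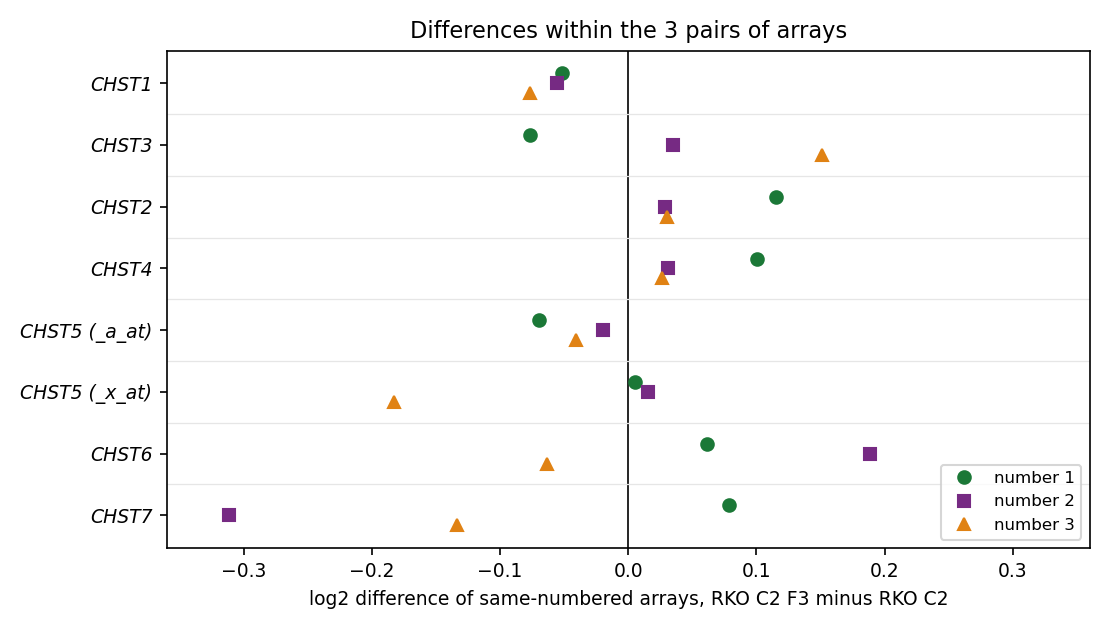
Log2 difference between same-numbered arrays (RKO C2 F3 minus RKO C2) for each probe set, with a symbol for each replicate number. CHST1 and CHST5 _a_at lie below 0 and CHST2 and CHST4 above 0 for all 3 numbers, and CHST7 runs from -0.31 to 0.079.

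The log2 signals of the 8 probe sets fell in the lower and middle part of the table, and none was among its brightest. Probes differ in how strongly they bind, so the order that follows is one of array signal and not of transcript amount. CHST5 _a_at was brightest with a mean of 6.29 over the 6 arrays, followed by CHST7 at 6.17 and CHST5 _x_at at 6.08. The ranges of these 3 over the 6 arrays overlapped. Within each array, CHST5 _a_at was above _x_at, by 0.017 (C2 replicate 3) to 0.32 (C2 replicate 2). CHST7 was above CHST5 _a_at on C2 replicate 3 (6.32 against 6.23) but not on every array. CHST1 followed at 5.03, CHST3 at 4.72, CHST4 at 4.53, CHST6 at 3.99 and CHST2 at 3.45. Each of these 5 lay below its brighter neighbour on every array. Across different arrays, the lowest CHST3 value (C2 replicate 3) was only 0.0014 above the highest CHST4 value (F3 replicate 1). CHST5 _a_at stood at percentile 60.6 of mean signal among all probe sets, CHST1 at percentile 43.0, CHST6 at 27.2 and CHST2 at 19.6. The table holds no detection call, so none of these genes could be called expressed or absent.

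The spread between replicate arrays set how small a change could be seen. The within-group SD of the 8 probe sets ran from 0.053 for CHST1 to 0.12 for CHST7, with a median of 0.077, against 0.083 over all probe sets. CHST2 was almost as steady as CHST1, with 0.055, and CHST6 was the second most variable with 0.10. C2 replicate 3 was the highest or the lowest array for 5 of the 8, in both directions. It was highest for CHST1, CHST5 _x_at and CHST7 and lowest for CHST3 and CHST4. Its median distance from a probe set's own mean was 0.0997, against 0.037 to 0.065 on the other 5 arrays. Neither this distance nor the count of 5 was set against all probe sets. Limma array weights, fitted on the whole table, are higher for steadier arrays. C2 replicate 3 had a weight of 1.19, inside the range of 0.76 (F3 replicate 1) to 1.47 (F3 replicate 2). Without C2 replicate 3 the count past the threshold was again 0 of 8. The log2 changes were then -0.027 for CHST1, -0.0091 for CHST3, 0.016 for CHST4, -0.00059 for CHST5 _x_at and -0.082 for CHST7. These are the probe sets where that array was highest or lowest, and their changes became smaller in size. The others became larger: 0.090 for CHST2, -0.089 for CHST5 _a_at and 0.093 for CHST6.

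**Figure D4:**
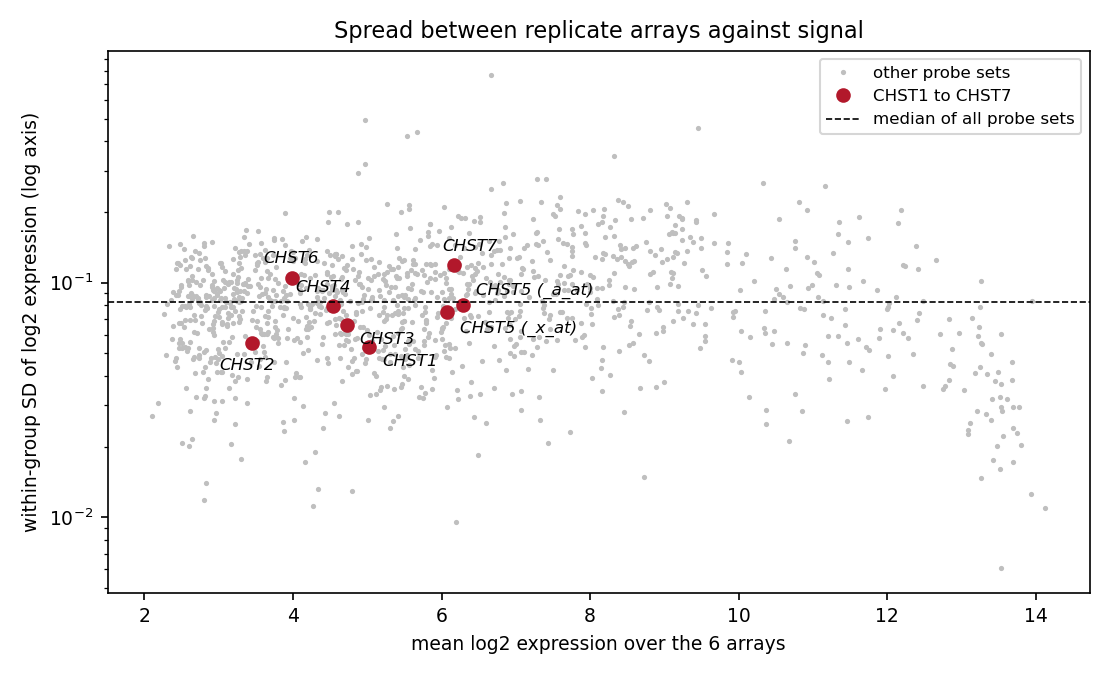
Within-group SD of log2 expression (log axis) against mean log2 expression over the 6 arrays for all 1259 probe sets (grey), with the 8 probe sets of CHST1 to CHST7 in red and the median SD of 0.083 as a dashed line. CHST6 and CHST7 lie above that line and the other 6 below it.

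For each probe set the 2 named genes with the highest Pearson r over the 6 arrays were listed; these values describe 6 arrays of 2 populations, and a search over 1043 named probe sets picks high values. CHST6 was followed most closely by B3GNT7 (r = 0.99 over 6 arrays), a GlcNAc-transferase. B3GNT7 had log2 expression of 4.47, 4.73 and 4.48 on the F3 arrays, against 4.41, 4.49 and 4.56 on the C2 arrays. For both genes F3 replicate 2 was the highest and C2 replicate 1 the lowest array, and r was 0.98 over the 5 arrays without F3 replicate 2. CHST3 was followed by LRIF1 (r = 0.998 over 6 arrays), which ran from 2.34 to 2.68. For the other 6 probe sets the leading genes were ADGRE3 for CHST1 (0.96), CD34 for CHST2 (0.94), CLEC9A for CHST4 (0.96), LUM for CHST5 _a_at (0.95), MCAM for CHST5 _x_at (0.96) and CLEC4A for CHST7 (0.94). The next were GALNT1 for CHST1 (0.95), IL7 for CHST2 (0.93), CCL18 for CHST3 (0.97), MFNG for CHST4 (0.95), SMPD1 for CHST5 _a_at (0.94), SLC35F3 for CHST5 _x_at (0.95), IL1B for CHST6 (0.95) and BMPR2 for CHST7 (0.93). The 2 probe sets of CHST5 thus had different genes on their lists. For the 6 leading genes from ADGRE3 to CLEC4A, r was also taken over 5 arrays, without the array farthest from the CHST median. It then ran from 0.85 for MCAM to 0.97 for LUM. LUM averaged only 2.30, at percentile 0.40 of mean signal.

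Genes that supply, extend or remove what these enzymes sulfate were counted in 9 lists, with 90 measured genes in all. None passed in limma, and 5 of the 90, or 5.56%, had an unadjusted p under 0.05, against 5.4% of all probe sets. Of the 90, 57 had a negative change, against 54.6% of all probe sets, and the median change over the 90 was -0.017. In the donor supply, 0 of 4 measured genes passed. PAPSS2, which makes the donor PAPS, had log2 expression of 4.47, 4.13 and 4.42 on the F3 arrays, against 4.80, 4.88 and 4.80 on the C2 arrays. All F3 arrays of PAPSS2 were below all C2 arrays, and the difference of -0.49 (SE 0.09) did not pass in limma (adjusted p = 0.19). PAPSS1, the other PAPS synthase, was at 9.54, 9.61 and 9.75 on the F3 arrays, against 9.61, 9.58 and 9.65 on the C2 arrays. The log2 change of PAPSS1 was 0.020, and without F3 replicate 3 it was -0.037. SLC35B3, a Golgi PAPS transporter, was at -0.051, and at 0.030 when quantile normalization was repeated.

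Among the remaining sulfotransferases none passed either. The CHST8 to CHST15 and UST list (9 genes, median -0.055) had 6 with a negative change, against 54.6% of all probe sets. The smallest p-values there were those of CHST11 (-0.12), CHST15 (-0.19) and UST (-0.15), which sulfate chondroitin or dermatan chains. With single arrays left out CHST15 ran from -0.30 to -0.080 and UST from -0.24 to -0.038. Both changes were smallest in size without C2 replicate 2. The 4 galactose 3-O sulfotransferases had a median of -0.019, with GAL3ST4 at -0.059, GAL3ST3 at 0.071 and GAL3ST2 at -0.024. GAL3ST3 was at -0.044 without F3 replicate 2, and GAL3ST2 was at 0.013 without F3 replicate 3, at 0.0040 without C2 replicate 1 and at 0.0034 without C2 replicate 3. The 17 tyrosine and heparan sulfotransferases had a median of -0.0038, with the heparan enzymes HS2ST1 at -0.14, HS6ST2 at -0.081 and HS3ST6 at 0.11. Over all probe sets the median change was -0.0064.

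The lists of chains and carriers held no gene past the threshold. Of 10 enzymes of keratan sulfate and poly-N-acetyllactosamine chains, 7 had a negative change (median -0.046), against 54.6% of all probe sets. The smallest p-values there were those of B3GNT8 (0.12), which extends poly-N-acetyllactosamine, B4GAT1 (-0.15) and the galactosyltransferase B4GALT3 (-0.078). B4GAT1 is known for the glucuronic acid primer of the dystroglycan glycan, which the name of the list does not describe. The 4 measured keratan sulfate carrier proteins had a median of -0.015. Fibromodulin (FMOD) was at 0.055, lumican (LUM) at -0.051 and osteoglycin (OGN) at -0.018, and OGN was at 0.0040 after repeated quantile normalization, at 0.0018 without F3 replicate 2 and at 0.023 without C2 replicate 3. Of 12 chondroitin chain enzymes, 10 had a negative change (median -0.017), against the same 54.6%. They were led by XYLT2, which adds the first xylose of the chain, at -0.10, and by the chondroitin synthases CHSY3 at 0.092 and CHSY1 at -0.16. The other CHSY3 probe set was at -0.12, so the probe sets of CHSY3 went opposite ways.

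Partners of sulfated L-selectin ligands (17 genes, median 0.0061) included GCNT3, a mucin branching GlcNAc-transferase, at -0.14, the fucosyltransferase FUT4 at -0.080 and the vascular addressin MADCAM1 at 0.038. The 13 sulfatases and hydrolases had a median of -0.052, with the glucuronidase GUSB at -0.15, the iduronate sulfatase IDS at -0.28 and the iduronidase IDUA at 0.090, and the other IDS probe set was at -0.021. None of these 6 genes passed (limma adjusted p from 0.84 to 0.998).

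**Figure D5:**
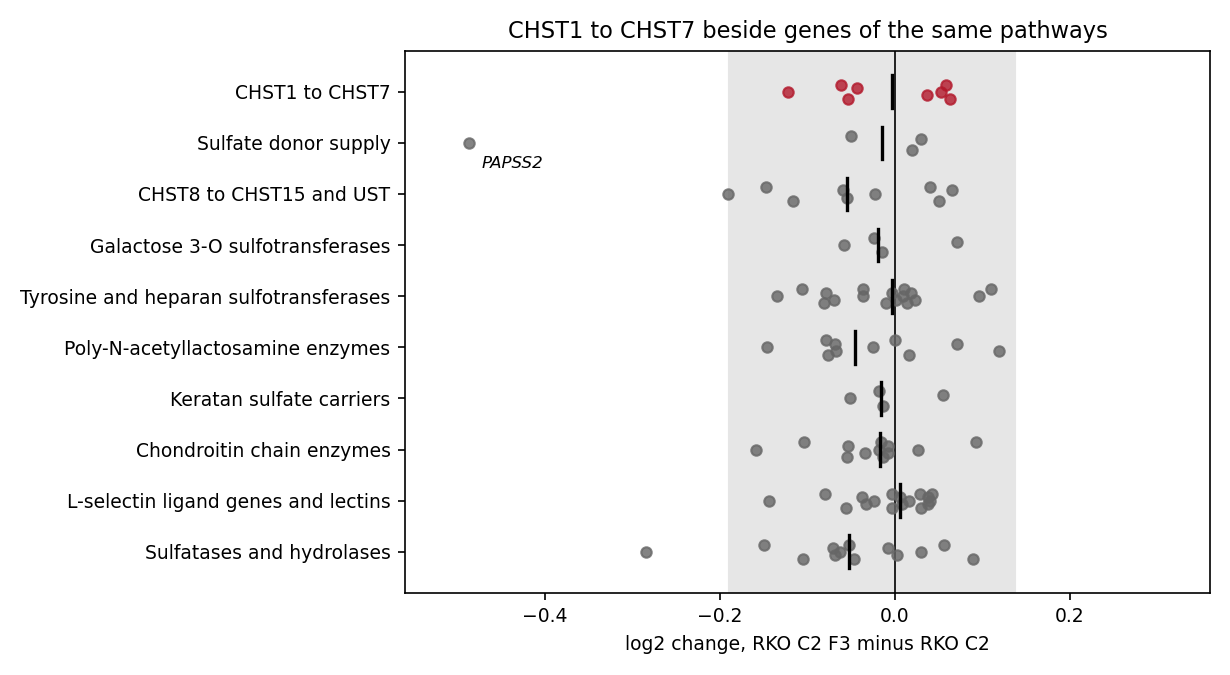
Log2 change (RKO C2 F3 minus RKO C2) of the 8 CHST1 to CHST7 probe sets (red) and of each measured gene in 9 pathway lists (grey, 1 probe set per gene), with the list median as a black bar and the middle 95% of all probe sets shaded. PAPSS2, at -0.49, lies farthest from 0, and the CHST1 to CHST7 values stay between -0.12 and 0.062.

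The arrays had medians of 5.48 to 5.51 on the log2 scale, and the correlation between arrays across probe sets was at least 0.9981. Of 14 colon epithelial markers 4 were measured, and none passed: MUC1 averaged 7.11 in F3 and 7.10 in C2, MUC2 5.15 in F3 and 5.12 in C2, LGALS4 4.68 in F3 and 4.74 in C2, and MUC13 4.23 in F3 and 4.13 in C2. Whether the cells carry the keratins and adhesion proteins that define this epithelium was not analysed here. Among markers of other cell types, 0 of 16 leukocyte, 0 of 7 endothelial and 0 of 6 stromal genes passed, against 0.0794% of all probe sets, and their changes went both ways. At an unadjusted p under 0.05 there were 3 of 16 leukocyte genes (CD72 at 0.23, KLRC1 at -0.21 and SIGLEC5 at 0.17), 1 of 7 endothelial genes (ICAM2 at -0.20) and 0 of 6 stromal genes, against 5.4% of all probe sets. Mean signals over the 6 arrays were 3.75 for CD72, 2.49 for KLRC1, 4.52 for SIGLEC5 and 5.04 for ICAM2. KLRC1 stood at percentile 2.14 of all probe sets, and none of these genes could be called expressed. The F3 and C2 arrays did not overlap for 4 of the 16 leukocyte genes, against 10.3% of all probe sets, and for 0 of the 7 endothelial and 0 of the 6 stromal genes.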

How the data were processed

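Total RNA was extracted with Trizol and labelled with biotin, per the labels' protocols. Values are log2 expression, deposited as 1 per probe set and array, which the authors made with RMA (background correction, quantile normalization across arrays and summary of probes), per the submitters' processing notes. The sources used here give no RMA version, probe set definitions or build. RMA makes arrays alike, which would remove a shift of most genes, and compresses changes of dim probe sets.

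Probe sets were named by RefSeq accession (GRCh38 gene table), which named 1043 of 1259. All 6 arrays entered limma 3.58.1 (R 4.3.3; lmFit and eBayes, two-sided, Benjamini-Hochberg over all probe sets, threshold 0.05), without a filter. The script was tested on simulated data. Separate cultures are not stated in the labels, so the spread that p-values rest on may be technical only; the number of arrays limits the precision. Deviations of same-numbered arrays correlated with r = 0.52, 0.18 and 0.26, and these arrays share a label suffix, so they were treated as pairs. F3 replicate 3 also had r = 0.15 with C2 replicate 2, so the pairing is weak evidence for numbers 2 and 3. P-values are from the fit without pairs unless the block is named. Lists use the probe set with the highest mean per gene and name the 3 smallest p-values in each. The members and lists were chosen with earlier results of these data known. Alternatives were the replicate block, other scalings, a filter on dim probe sets, other variance models, array weights, leaving out each array, 1 probe set per gene, averaging the probe sets of 1 gene and a threshold of 0.10.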

Additional observations from a re-analysis of the deposited data

How the results depend on the processing

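No CHST1 to CHST7 probe set passed (0 of 8), with all arrays or in any of the 14 alternatives, and their smallest adjusted p over these was 0.74 (limma with the replicate block). At an unadjusted p under 0.05 the count was 0 on all 6 arrays, with and without the replicate block. Without C2 replicate 1, CHST7 was at -0.20 with an unadjusted p of 0.029 (limma adjusted p = 0.83). The filter on dim probe sets left 7 of the 8 in the test. Over the whole table the count was 1 probe set. It was 2 with the replicate block, 2 at an adjusted p under 0.10 and 0 to 2 with single arrays left out. At the adjusted threshold the block changed no call among the genes named here. At an unadjusted limma p under 0.05 the block brought in IDS (0.064 to 0.0035), CHST15 (0.14 to 0.032) and CHSY1 (0.24 to 0.043). It took out B3GNT8 (0.046 to 0.057). Of the 8 changes, 5 kept their sign in every alternative run. With single arrays left out CHST3 ran from -0.0091 to 0.081, CHST5 _a_at from -0.089 to 0.00011 and CHST6 from -0.011 to 0.10. The 5 that kept their sign ran from -0.087 to -0.027 for CHST1, 0.040 to 0.090 for CHST2, 0.016 to 0.10 for CHST4, -0.099 to -0.00059 for CHST5 _x_at and -0.20 to -0.064 for CHST7. Leaving out 1 array thus moved all 8 by over 1.5 times. Of 27 pathway genes named, 0 passed in any alternative (smallest adjusted p 0.13) and 6 turned sign in some; leaving out 1 array moved 20 of the 27 by over 1.5 times. With single arrays left out PAPSS1 ran from -0.037 to 0.065, GAL3ST3 from -0.044 to 0.16, GAL3ST2 from -0.078 to 0.013 and OGN from -0.059 to 0.023. Repeated quantile normalization gave 0.030 for SLC35B3 and 0.0040 for OGN, and the mean of its probe sets gave -0.011 for CHSY3. The cause of these turns was not tested. Median centring and repeated quantile normalization moved the median change of all probe sets to 0.0090 and 0.0030. The table gives no signal over background, so what dim probe sets could show is not known.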
